A study of Mus musculus with 6 samples.

Results

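AP-1 and immediate early genes were followed across libraries of THY1-positive spermatogonia from control and Ddx20 knockout mice. The 10 genes were taken by symbol: the FOS family genes Fos, Fosb, Fosl1 and Fosl2, the JUN family genes Jun, Junb and Jund, and Egr1, Ier2 and Dusp1. All 10 were among the 22579 genes of the deposited count table, and 8 of them were among the 14766 genes tested. The study held 3 libraries from control littermates and 3 from Ddx20 knockout mice, each made from about 1000 sorted cells at day 4. The labels shorten the knockout to cKO and do not name the promoter or cell type that drove the deletion, the strain, or the animal behind each library. DDX20 is an RNA helicase of the SMN complex, and THY1 marks the surface of undifferentiated spermatogonia, the early germ cells of the testis.

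Immediate early genes are transcribed within minutes of a stimulus from transcription factors that the cell already holds, with no need for new protein. FOS proteins pair with JUN proteins through leucine zippers to form AP-1, which binds DNA and drives a second wave of genes, while JUN proteins can also pair with each other. EGR1 is a zinc finger transcription factor induced by ERK signalling, IER2 a nuclear protein induced with it, and DUSP1 a phosphatase that switches MAP kinases off. Their messages are short-lived, and the same genes are known to be induced when tissue is dissociated into single cells.

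RefSeq promoter windows (build GRCm38.p6) were matched by symbol for 7 of the 10 genes: Fos, Fosb, Fosl2, Jun, Junb, Jund and Dusp1. The 250 bases before the start site are shown for Fos and Dusp1, the members that passed the test, for Fosb, the member closest to Fos in pattern, and for Jun, a partner that did not pass. All are written 5′ to 3′ on the strand of the gene, and capitals mark matches to the motifs described after them. The windows lie at chr12:85473640-85473889 on the plus strand for Fos, at chr17:26508473-26508722 on the minus strand for Dusp1, at chr7:19310046-19310295 on the minus strand for Fosb and at chr4:95052223-95052472 on the minus strand for Jun. Against the RefSeq starts used here, the GENCODE M21 models of Fos and Jun start at the same base and that of Fosb 6 bases upstream, while that of Dusp1 starts 53656 bases upstream. For the windows that are not shown, the M21 model starts 671 bases upstream for Fosl2, 30 bases downstream for Junb and 1210 bases downstream for Jund, so the windows of Fosl2, Jund and Dusp1 are not those before the M21 start.
Fos: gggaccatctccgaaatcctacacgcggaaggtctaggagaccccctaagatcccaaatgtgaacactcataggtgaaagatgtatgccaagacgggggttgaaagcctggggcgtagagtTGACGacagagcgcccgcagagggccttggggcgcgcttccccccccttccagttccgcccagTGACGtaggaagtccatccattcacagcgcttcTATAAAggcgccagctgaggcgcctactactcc
Dusp1: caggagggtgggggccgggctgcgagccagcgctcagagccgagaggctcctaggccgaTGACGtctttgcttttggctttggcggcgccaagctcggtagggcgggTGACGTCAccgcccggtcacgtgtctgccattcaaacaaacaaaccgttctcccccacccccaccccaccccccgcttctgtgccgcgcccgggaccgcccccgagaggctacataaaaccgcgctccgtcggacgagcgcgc
Fosb: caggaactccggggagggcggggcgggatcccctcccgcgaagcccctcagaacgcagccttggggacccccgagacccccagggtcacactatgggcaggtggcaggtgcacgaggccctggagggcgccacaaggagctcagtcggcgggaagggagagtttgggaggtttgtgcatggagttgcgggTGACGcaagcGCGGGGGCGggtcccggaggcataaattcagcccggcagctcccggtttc
Jun: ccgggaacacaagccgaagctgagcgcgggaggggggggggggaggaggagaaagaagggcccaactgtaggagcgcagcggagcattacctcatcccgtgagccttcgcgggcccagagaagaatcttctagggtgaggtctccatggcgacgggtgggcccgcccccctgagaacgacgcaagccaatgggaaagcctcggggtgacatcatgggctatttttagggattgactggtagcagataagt

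The motifs searched on both strands were the CArG box bound by SRF, the cyclic AMP response element TGACGTCA and its 5-base part TGACG, the AP-1 site TGANTCA, the EGR site GCGNGGGCG and the TATA box TATAAA. The short part TGACG also counts wherever it lies inside TGACGTCA. TGACG was in 4 of the 7 windows (Fos, Fosb, Junb and Dusp1), against 17.8% of all 32851 windows of this length in the table. Fos held it at positions -129 and -66 from the start site and TATAAA at -33, a motif found in 12.4% of all windows. Dusp1 held the full TGACGTCA at -143, found in 1.55% of all windows, and a further TGACG at -191. Fosb held TGACG at -60 and the EGR site at -50. The EGR site was also in the window of Fosl2, and 4.7% of all windows had it. None of the 7 windows matched the patterns used for the CArG box or for the AP-1 site (TGANTCA), which 1.47% and 6.75% of all windows did. The serum response element for which Fos is known lies further upstream than these letters reach. The windows of Jun and Jund held no match.

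Total counts ran from 8428871 to 11893287 in the controls and from 11656130 to 12497967 in the knockouts. Ddx20 had 383 to 668 reads in the controls and 119 to 168 in the knockouts. Of the 12 spermatogonial markers, all were read in both groups, with a summed level of 3982 to 4769 CPM (read counts scaled to a common, TMM-adjusted library size) in controls and 4255 to 4666 CPM in knockouts. Dazl stood at a mean of 2767 CPM in controls and 3132 CPM in knockouts, and Thy1, the gene behind the sort, at 9.01 CPM in controls. Both are named here although no rule picked them. Most of the summed level was thus Dazl, and its range need not hold for the other markers. Knockout 1 and knockout 2 stood apart from the rest by their closeness. Between them the mean chi-square per gene was 1.78, close to the value of 1 for pure sampling noise, while the other 14 pairs lay between 11.96 and 104.2. SDs and p-values over all 3 knockouts may therefore be too small. Calls are therefore also given with that pair counted as 1 library. Of the 12 spermatogonial markers edgeR called 5 lower (Gfra1, Ret, Etv5, Kit and Stra8) and 0 higher, against 2.8% and 2.03% of all genes. With the pair as 1 library it called 0 of them, with 6 lower at an unadjusted p under 0.05, while DESeq2 called 3 lower and limma-voom 2. Here and in every other setting limma-voom was run with sample quality weights. Among all 15406 genes of those fits edgeR called 0 lower and put 2150 at an unadjusted p under 0.05 in either direction. DESeq2 and limma-voom called 259 and 198 of these genes lower. The labels do not tie libraries to animals, so p-values measure the spread between these libraries, which may be technical. In bulk samples, more cells of a type and more RNA per cell cannot be told apart.

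Fos and Dusp1 rose in the knockouts, and no member fell. Fos rose 1.84-fold and Dusp1 1.88-fold in mean CPM. By the edgeR quasi-likelihood test 2 of the 8 tested members had a Benjamini-Hochberg adjusted p under 0.05 over all genes, both higher, against 4.83% of all genes called and 2.03% called higher. The median log2 fold change of the 8 was 0.32, against 0.01 over all genes tested. Of the 8 values 7 were above 0, as were 7426 of the 14766 over all genes. Those of Jun, Egr1 and Ier2 were smaller than their SE. With library size alone as the scale these genes were below 0 (-0.11, -0.28 and -0.13), where the median of all genes was -0.26. In Fos, Junb and Dusp1 every knockout library lay above every control library, which held for 16.8% of all genes tested in that direction and 32.6% in either. At an unadjusted p under 0.05 there were 4 members (Fos, Fosb, Junb and Dusp1), all higher, against 11.3% of genes in that direction and 24.1% in either. With the close pair of knockout 1 and 2 entered as 1 library, edgeR called 0 of the 8 and put 2 at an unadjusted p under 0.05. Of all 15406 genes tested there it called 1 and put 2150 under that unadjusted p. On the same 5 libraries DESeq2 and limma-voom each called Fos and Dusp1, where they called 206 and 210 of the 15406 genes higher.

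**Figure D1:**
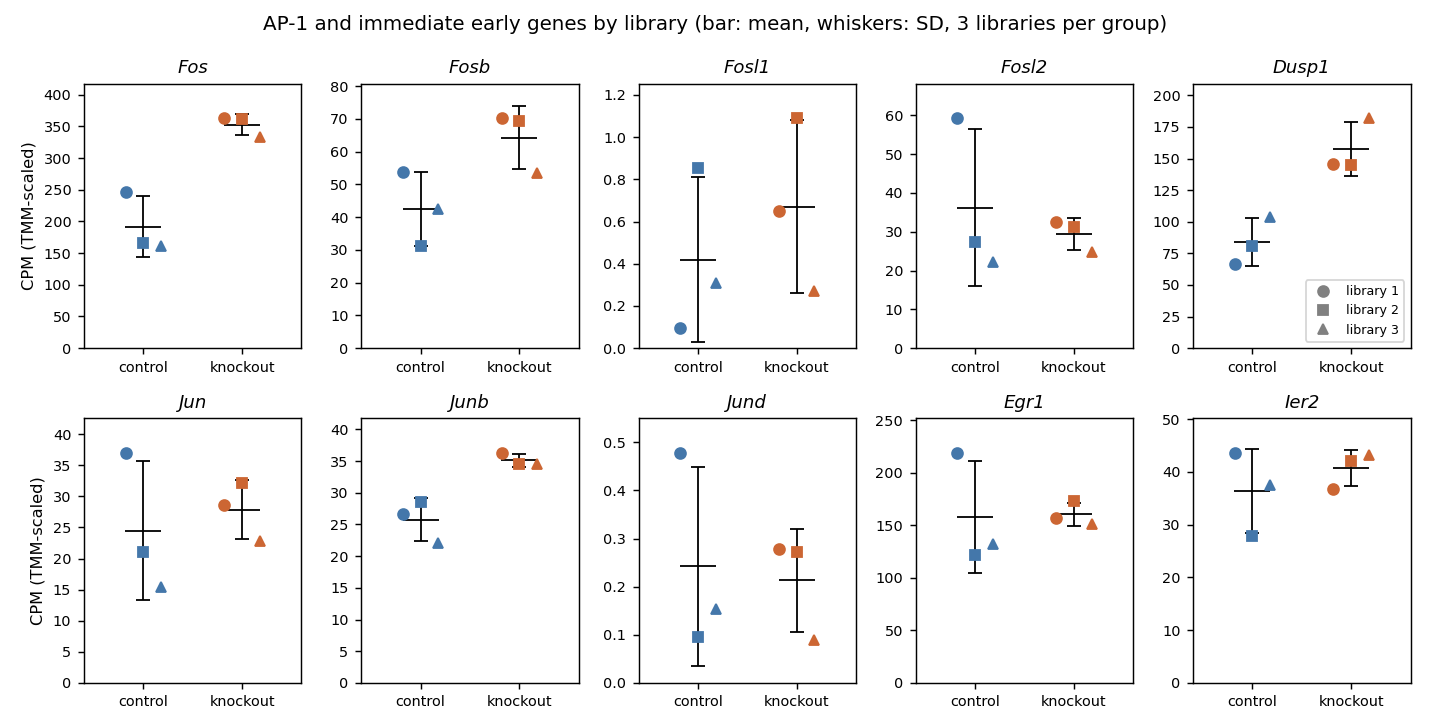
TMM-scaled CPM (vertical axes, each from 0) of the 10 genes in the 3 control and 3 knockout libraries, with symbols for the library numbers, bars for the mean and whiskers for the SD. Fos, Junb and Dusp1 have separate groups, while control 1 stands above the other controls in Fos, Fosb, Fosl2, Jun, Egr1 and Ier2.

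Fos, the founding partner of the JUN proteins in AP-1 (ENSMUSG00000021250, chromosome 12, 85473890 to 85477273, plus strand), had the most reads of the 10 genes in every library. It had 2591, 1750 and 2100 reads in controls 1 to 3 and 3903, 3988 and 3701 reads in knockouts 1 to 3, or 247, 166 and 161 CPM and 363, 362 and 333 CPM. The lowest knockout was thus above the highest control, which was control 1. The mean went from 192 ± 48.5 CPM to 353 ± 16.8 CPM (SD, n = 3 per group), which in log2 terms was 0.88 ± 0.19 (SE) at an edgeR adjusted p of 0.0328. With knockout 1 and 2 as 1 library edgeR gave an adjusted p of 0.162, DESeq2 0.0153 and limma-voom with sample quality weights 0.0087. The call was also lost with library size alone as the scale (log2 fold change 0.59, edgeR adjusted p 0.117), after removal of the trend with exon length and GC content (0.63, 0.11), and without control 2, control 3 or any 1 of the knockouts (edgeR adjusted p 0.0707 to 0.162). Without control 1 the log2 fold change was 1.11, with an edgeR adjusted p of 0.0113. Summed markers of testis stroma, at 1061, 716 and 1058 CPM in controls 1 to 3 and 1613, 1604 and 1471 CPM in knockouts 1 to 3, were also higher in every knockout, and their part in the level of Fos was not tested.

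Fosb, whose protein pairs with JUN as FOS does (ENSMUSG00000003545, chromosome 7, 19302696 to 19310051, minus strand), was lower in level than Fos and followed it closely across the libraries. It stood at 53.7, 31.2 and 42.4 CPM in the controls and 70.2, 69.3 and 53.3 CPM in the knockouts. Only knockout 3 and control 1 overlapped, by less than 1 CPM. Its log2 fold change was 0.60 ± 0.22 (SE), and its edgeR adjusted p was 0.125, so it did not pass. Without control 1 it was 0.80 with an edgeR adjusted p of 0.048, and limma-voom with sample quality weights gave 0.88 with an adjusted p of 0.00243. In the other 16 alternatives it had no call, among them library size alone (0.30, edgeR adjusted p 0.514), leaving out control 2 (0.43, edgeR adjusted p 0.236) and DESeq2 (adjusted p 0.0884).

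Fosl2, which encodes the FOS-related protein FRA-2 (ENSMUSG00000029135, chromosome 5, 32135801 to 32157842, plus strand), had the highest value of all in a control. It stood at 59.3, 27.3 and 22.1 CPM in the controls and 32.4, 31.2 and 24.8 CPM in the knockouts. Control 1 lay above every other library, and the knockouts lay within the range of the controls. The log2 fold change was -0.29 ± 0.33 (SE), its edgeR adjusted p was 0.631, and it was 0.25 without control 1. Fosl1, the gene of the related FRA-1, had 1, 9 and 4 reads in controls 1 to 3, against 7, 12 and 3 in knockouts 1 to 3, and its low counts kept it out of the test. Of the 2033 exonic bases of Fosl1, 1163 overlap Ccdc85b on the other strand, and SMART-seq2 keeps no strand.

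Jun (ENSMUSG00000052684, chromosome 4, 95049034 to 95052222, minus strand), the gene of the partner that FOS needs to bind DNA, has 1 exon and stood at 37.0, 21.1 and 15.4 CPM in the controls. In the knockouts it stood at 28.6, 32.2 and 22.8 CPM, between control 1 and the other controls. Its log2 fold change was 0.19 ± 0.30 (SE), and its edgeR adjusted p was 0.755. The value was 0.61 without control 1 (edgeR adjusted p 0.147), -0.06 without control 3 and -0.11 with library size alone. Antisense Junos overlaps 232 of its 3189 exonic bases.

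Junb, which encodes a JUN protein known to restrain JUN at some promoters (ENSMUSG00000052837, chromosome 8, 84974484 to 84978718, minus strand), varied little within each group. It had 279, 301 and 287 reads in controls 1 to 3, against 391, 381 and 383 in knockouts 1 to 3, or 22.0 to 28.6 CPM in the controls and 36.3, 34.6 and 34.5 CPM in the knockouts. The groups did not overlap, and the knockouts lay within 2 CPM of each other. The log2 fold change was 0.45 ± 0.19 (SE), but the edgeR adjusted p of 0.172 did not pass, and on the scale of library size alone the groups overlapped. Of its exonic bases 173 are shared with Prdx2 on the other strand. Jund, the third JUN gene, had 5, 1 and 2 reads in controls 1 to 3, against 3, 3 and 1 in knockouts 1 to 3, 15 of all reads together, and was not tested. Its annotated model is a single exon of 1668 bases with 67.1% GC, the highest GC content of the 10, and 877 of those bases overlap the antisense gene Gm11175. The part of GC content and overlap in its low count was not tested.

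Levels between genes were compared per kb of exon, with the length taken over all bases of any GENCODE M21 exon of the gene. That length can exceed the length of the message present, so the order of genes and the family shares are approximate. Fos led in both groups with 81.4 ± 20.6 CPM per kb in controls and 150 ± 7.15 CPM per kb in knockouts (SD, n = 3 per group). Among the genes tested, 95.9% lay below the control level of Fos and 97.3% below its knockout level. In the controls Egr1, Dusp1 and Ier2 came next with 35.1, 25.3 and 23.9 CPM per kb, and their libraries overlapped. Below them came Junb, Jun, Fosb and Fosl2 with 11.2, 7.68, 6.80 and 3.74 CPM per kb, of which Jun overlapped both its neighbours and Fosb overlapped Fosl2. In the knockouts Dusp1 (47.5 CPM per kb) stood above Egr1 (35.8), Egr1 above Ier2 (26.7), Ier2 above Junb (15.3) and Junb above Fosb (10.3) with no overlap between neighbours. Fosb and Jun (8.74 CPM per kb) overlapped, and Fosl2 (3.05 CPM per kb) lay below both. Fosl1 and Jund stayed under 1 CPM per kb in every library.

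Fos made up most of the FOS family message in all 6 libraries, from 87.7% to 89.5% of the family's CPM per kb in controls and from 91.2% to 92.7% in knockouts. Fosl2 took 5.11%, 3.58% and 2.94% in the control libraries and 1.98%, 1.91% and 1.68% in the knockout libraries, so its share was lower in each knockout. In the JUN family Junb and Jun shared the message, with Junb at 49.4%, 65.1% and 66.0% in the control libraries and 63.3%, 59.4% and 67.6% in the knockout libraries. Control 1 was the library in which Jun and Junb were equal in level. The FOS family sum was 5.12, 4.13 and 5.36 times the JUN family sum per kb in the controls and 6.78, 6.67 and 6.89 times in the knockouts. These ratios did not overlap, and the exact permutation test of a single value in 3 against 3 libraries cannot go below a two-sided p of 0.1.

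**Figure D2:**
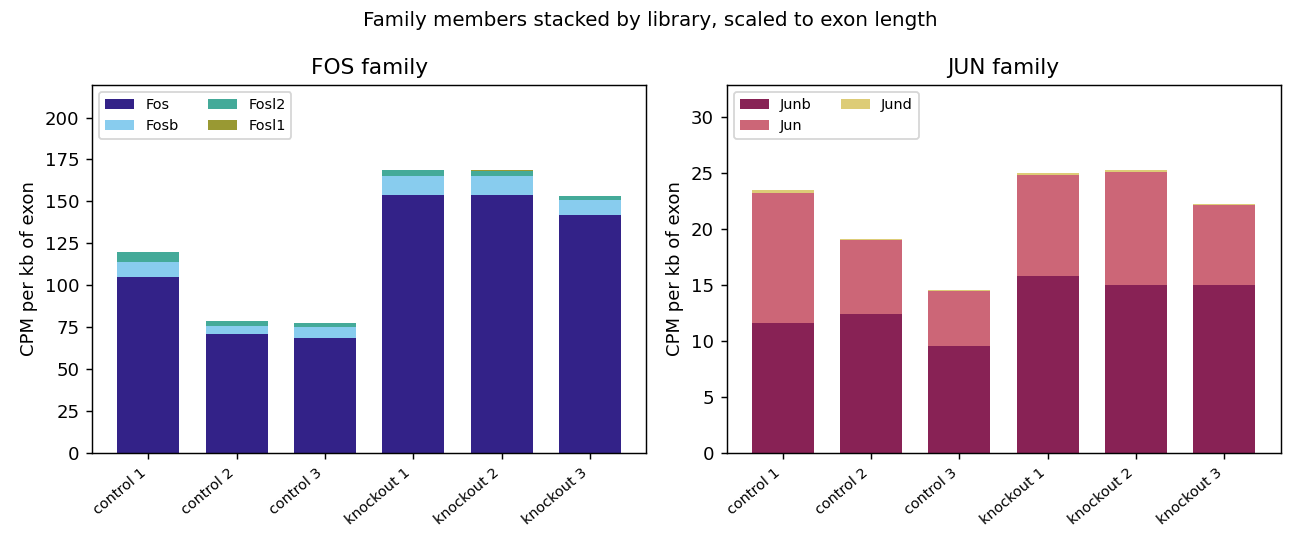
CPM per kb of exon (vertical axes from 0) of the FOS family (left) and JUN family (right) in each library, stacked by gene. Fos fills most of each FOS column, from 68.4 to 105 CPM per kb in controls and from 142 to 154 in knockouts, while Jun and Junb share the JUN columns.

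Egr1 and Ier2 showed no difference that passed the test. Egr1 (ENSMUSG00000038418, chromosome 18, 34859823 to 34864984, plus strand) had 2289, 1288 and 1717 reads in controls 1 to 3, against 1688, 1911 and 1674 in knockouts 1 to 3. That is 219, 122 and 132 CPM against 157, 173 and 151 CPM, so the 3 knockouts lay between control 1 and the other controls. The log2 fold change was 0.03 ± 0.22 (SE), and its edgeR adjusted p was 0.961. Its sign depended on the setting: it was -0.28 with library size alone, -0.11 without control 2, -0.09 without control 3 and -0.03 without knockout 2. Without control 1 it was 0.33, with an edgeR adjusted p of 0.116.

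Ier2 (ENSMUSG00000053560, chromosome 8, 84661331 to 84662852, minus strand), a gene of 1 exon, stood at 43.6, 27.9 and 37.6 CPM in the controls. The knockouts stood at 36.8, 42.1 and 43.2 CPM, inside the range of the controls. Its log2 fold change of 0.16 ± 0.20 (SE) had an edgeR adjusted p of 0.671, and it was -0.13 with library size alone and -0.16 after removal of the length and GC trend. It was 0.31 without control 1 and 0.02 without control 2.

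Dusp1 (ENSMUSG00000024190, chromosome 17, 26505590 to 26562128, minus strand), whose product dephosphorylates the MAP kinases that induce it, had 698, 850 and 1354 reads in controls 1 to 3, against 1570, 1595 and 2017 in knockouts 1 to 3. It stood at 66.7, 80.7 and 104 CPM in the controls and 146, 145 and 182 CPM in the knockouts, with no overlap. Control 1 was the lowest control for Dusp1, where it was the highest for 6 of the other tested members. The mean went from 83.7 ± 18.7 CPM to 157 ± 20.9 CPM (SD, n = 3 per group), which in log2 terms was 0.91 ± 0.19 (SE) at an edgeR adjusted p of 0.0288. With knockout 1 and 2 as 1 library edgeR gave an adjusted p of 0.126, DESeq2 0.00981 and limma-voom 0.014. The call was also lost with library size alone (log2 fold change 0.65, edgeR adjusted p 0.0513), without control 2 (0.0817) and without knockout 1, 2 or 3 (0.121, 0.117 and 0.1). It kept its call after removal of the length and GC trend (adjusted p by edgeR 0.0309), and on the scale of library size alone it was the member whose groups still did not overlap. Summed macrophage markers stood at 646, 1381 and 1228 CPM in controls 1 to 3 and 1555, 1679 and 2294 CPM in knockouts 1 to 3. They were also lowest in control 1 and highest in knockout 3, but their highest control was control 2, where that of Dusp1 was control 3. Summed steroidogenic markers had the same lowest and highest library, though their groups overlapped. They stood at 23.2, 60.8 and 33.9 CPM in controls 1 to 3 and 45.4, 45.2 and 62.4 CPM in knockouts 1 to 3. The part of either sum in the level of Dusp1 was not tested.

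**Figure D3:**
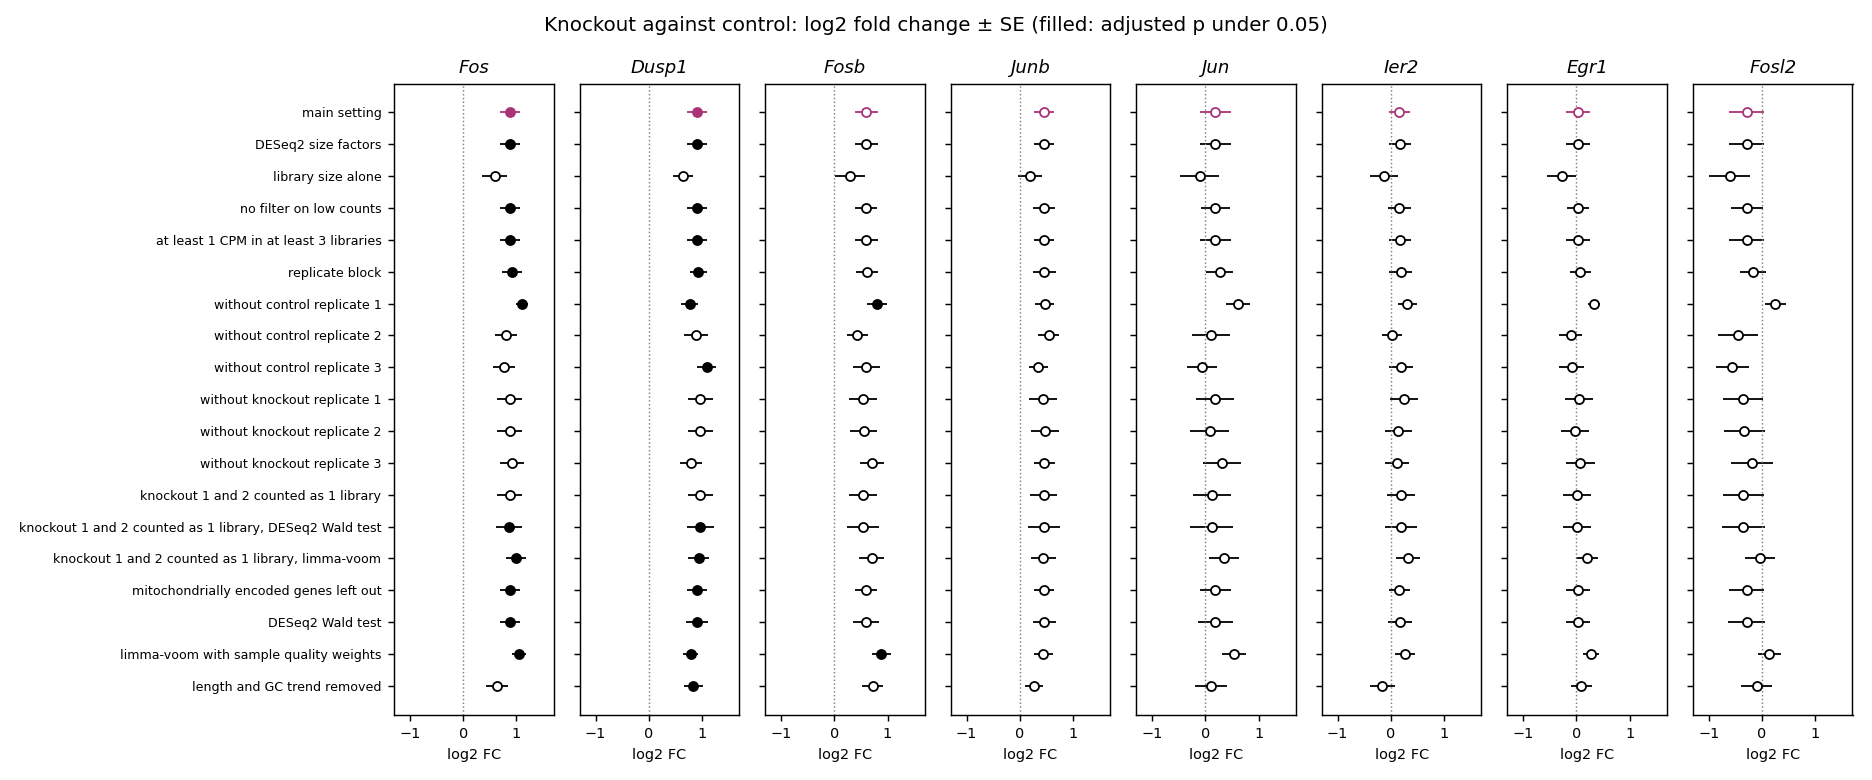
Log2 fold change of knockout against control ± SE (horizontal axes) for the 8 tested members under the main setting (coloured) and 18 alternatives (black), filled where the adjusted p is under 0.05. Fos lies between 0.59 and 1.11 and Dusp1 between 0.65 and 1.09, all above 0, while Jun, Ier2, Egr1 and Fosl2 cross 0.

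Ratios of reads between members within a library need no scaling between libraries. Egr1, which is induced through much the same route as Fos, gave 1 read for every 1.13, 1.36 and 1.22 reads of Fos in the controls and for every 2.31, 2.09 and 2.21 reads in the knockouts. The groups were far apart relative to their spread, with means of 1.24 ± 0.114 and 2.20 ± 0.113 (SD, n = 3 per group). The mean log2 ratio differed by 0.83, and the exact permutation p of 0.1 is the smallest that 3 against 3 libraries can give. Of the 28 pairs among the 8 tested members, 12 had ratios that did not overlap between the groups, and none could pass an adjusted threshold for the same reason. The share over pairs of all genes was not computed, while 32.6% of single genes tested had groups that did not overlap in CPM. The pairs also share their 8 genes, so the count of pairs is a description and no result about the members. Fos was higher in the knockouts relative to Fosl2, Jun, Junb, Egr1 and Ier2, that is in 5 of its 7 pairs, and overlapped in the pairs with Fosb and Dusp1. Dusp1 was higher relative to Egr1 and Ier2. Jun relative to Egr1 (0.169, 0.172 and 0.117 in controls, 0.182, 0.186 and 0.151 in knockouts) and Ier2 relative to Egr1 overlapped.

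**Figure D4:**
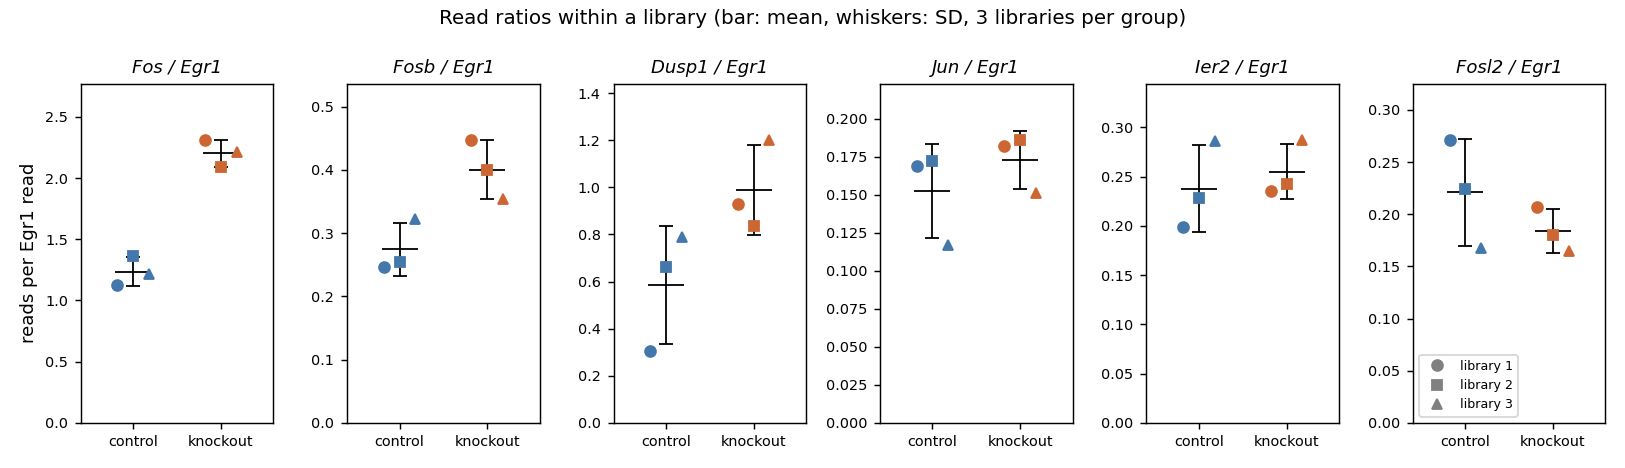
Reads of 6 members per read of Egr1 in the same library (vertical axes from 0), with bars for the mean and whiskers for the SD of 3 libraries per group. Fos, Fosb and Dusp1 have separate groups in which every knockout is higher, while Jun, Ier2 and Fosl2 overlap.

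The libraries differed within groups as well. Control 1 was the highest control in 6 of the 8 tested members (Fos, Fosb, Fosl2, Jun, Egr1 and Ier2), and it had the lowest total count. Knockout 3 was the lowest knockout in 6 members and the highest in Ier2 and Dusp1. Without control 1 the groups did not overlap in 6 of the 8 members (Fos, Fosb, Jun, Junb, Egr1 and Dusp1), all higher in the knockouts, against 3 with it. Among all genes tested 22.3% were higher with no overlap when control 1 was left out, a larger share than with all 3 controls. The share of all counts on the 10 genes was 0.0936%, 0.0483% and 0.0588% in the control libraries and 0.0804%, 0.0825% and 0.0751% in the knockout libraries, so control 1 had the highest share of the 6 libraries.

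By the distance between log2 CPM profiles (root mean square over the 6 libraries, each gene centred on its own mean), Egr1 and Ier2 were the closest pair of members at 0.18, followed by Fos and Fosb at 0.22 and Jun and Egr1 at 0.23. Fosl2 and Dusp1 were the farthest apart at 0.85. Among 7720 genes with a mean of at least 10 CPM, those nearest to Fos were Lins1 (0.068), Nell2 (0.093), a secreted glycoprotein gene, and Nkg7 (0.093), a granule protein gene of cytotoxic lymphocytes. Nkg7 went from 28.8 ± 6.54 to 50.6 ± 4.76 CPM (SD, n = 3 per group). Those nearest to Dusp1 were Igfbp6 (0.034), which encodes an IGF binding protein, Creg1 (0.057) and Gnpda2 (0.057). Igfbp6 went from 26.6 ± 5.92 to 51.0 ± 7.49 CPM.

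Summed markers of most other testis cell types were also higher in the knockouts, as Fos, Junb and Dusp1 were. The macrophage sum given with Dusp1 is over 7 genes and the stroma sum given with Fos over 6, all of them tested. For the 8 Sertoli markers, of which 7 were tested, the sum was 194 to 291 CPM and 296 to 330 CPM, highest among controls in control 1 and lowest among knockouts in knockout 3. Fos and the Sertoli sum shared that order of the extremes, but most of the sum was Vim, named here once its values were known. Vim stood at 234, 131 and 140 CPM in controls 1 to 3 and 205, 208 and 153 CPM in knockouts 1 to 3. The order of the sum is thus mainly that of Vim and need not hold for the other Sertoli markers. The 6 peritubular and smooth muscle markers, 5 of them tested, summed to 64.5 to 80.7 CPM against 163 to 233 CPM, the 6 T lymphocyte markers to 23.1 to 31.3 against 43.8 to 61.8 CPM and the 6 endothelial markers to 32.1 to 39.7 against 42.7 to 54.3 CPM. Steroidogenic markers overlapped, as did erythroid ones, and no marker analysed here was at 0 over a whole group. Mitochondrially encoded reads took at most 16.9% of counts in the controls and 19.8% to 20.1% in the knockouts. The part of these in the level of Junb and of the other members was not tested.

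Other immediate early genes gave no call. Among the 38 tested, edgeR called 0, with a median log2 fold change of -0.01. At an unadjusted p under 0.05 there were 4 higher and 4 lower, near the shares of 11.3% and 12.8% over all genes. DESeq2 called 2 and limma-voom with sample quality weights 6, where these tools called 11.1% and 18.7% of all genes. The smallest p values belonged to Klf10, a TGF-beta inducible zinc finger gene, with 72.1 ± 17.2 CPM in controls and 40.1 ± 10.6 CPM in knockouts (SD, n = 3 per group), and to Btg2, an antiproliferative gene, with 94.5, 95.6 and 105 CPM in controls and 156, 154 and 118 CPM in knockouts. Their edgeR adjusted p values were 0.0632 and 0.075. Picked after their values were known, Nr4a1, a nuclear receptor gene of the same response, had a log2 fold change of 0.09 and Zfp36, whose product speeds the decay of such messages, one of 0.37 (edgeR adjusted p 0.853 and 0.389).

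Other zipper proteins that can join AP-1 or the related CREB and MAF dimers gave 0 calls by edgeR among 14 tested genes, with a median of 0.04. At an unadjusted p under 0.05 there were 2 higher and 3 lower, against 11.3% and 12.8% of all genes. DESeq2 called 1 of them, Atf7, and limma-voom with sample quality weights 2. Atf7, the gene of a factor that dimerizes with JUN, averaged 25.7 ± 4.41 CPM over the controls and 15.1 ± 2.36 CPM over the knockouts. Crem, a cyclic AMP responsive modulator gene, stood at 26.3 ± 4.40 and 40.5 ± 4.05 CPM (SD, n = 3 per group). Their edgeR adjusted p values were 0.0807 and 0.0906.

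Upstream of the immediate early genes, the 30 genes that feed SRF and MAP kinase signalling had a median of -0.44 on the log2 scale. Of these 1 was called by edgeR, lower, against 2.8% of all genes called lower, while 13 were lower and 2 higher at an unadjusted p under 0.05, against 12.8% and 11.3% of all genes. Groups did not overlap in 13 lower and 3 higher members, against 15.8% and 16.8% of all genes. Rps6ka3, which encodes the ERK-activated kinase RSK2, fell from 77.6, 50.6 and 43.4 CPM in the controls to 25.9, 25.1 and 30.2 CPM in the knockouts. Its log2 fold change was -1.08 ± 0.23 (SE), and its edgeR adjusted p was 0.0311, which with knockout 1 and 2 as 1 library was 0.157, against 0.0302 by DESeq2 and 0.0462 by limma-voom. By edgeR it was 0.064 without control 2 and 0.0852 to 0.158 without each knockout in turn. Srf, the gene of the factor that binds the serum response element, named here although no rule picked it, had 9.93, 10.4 and 9.12 CPM in the controls and 4.46, 2.45 and 5.13 CPM in the knockouts, with no overlap. Its log2 fold change of -1.29 ± 0.37 (SE) had an edgeR adjusted p of 0.0714. DESeq2 called 6 genes of the list and limma-voom with sample quality weights 15, against 11.1% and 18.7% of all genes by the same tools. Library size alone gave 10 calls by edgeR, all lower, on a scale where the median of all genes was -0.26 and 7.8% of them were called lower.

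Of 9 tested genes of other dual-specificity phosphatases, the class of DUSP1, Dusp9 fell and 8 did not pass, with a list median of -0.17. Over all genes 2.8% were called lower. Dusp9, a phosphatase gene directed at ERK, stood at 29.7, 37.9 and 27.9 CPM in the controls and between 11.2 and 12.4 CPM in the knockouts. The log2 fold change was -1.42 ± 0.22 (SE), and its edgeR adjusted p was 0.0119, or 0.0883 with knockout 1 and 2 as 1 library, where DESeq2 gave 0.00195 and limma-voom 0.0087. That call was also lost without each of the knockouts in turn (0.062 to 0.0854), and the difference between Dusp1 and Dusp9 was not itself tested.

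Of 12 tested genes known as AP-1 targets, Hmox1 rose and 11 did not pass (median 0.17), where 2.03% of all genes were called higher. Hmox1, which encodes the haem-degrading enzyme heme oxygenase 1, is also a macrophage gene and stood at 435, 591 and 522 CPM in the controls and 939, 913 and 1308 CPM in the knockouts, which in log2 terms was 1.03 ± 0.21 (SE) at an edgeR adjusted p of 0.0279. With knockout 1 and 2 as 1 library the adjusted p was 0.126 with edgeR, 0.000218 with DESeq2 and 0.0109 with limma-voom. By edgeR it was 0.0501 after removal of the length and GC trend and 0.0513 and 0.0607 without control 2 and control 3. Among 16 heat shock and metallothionein genes, a group also raised by dissociation, Hspb1 rose and 15 did not pass (median 0.12). Hspb1, a small heat shock protein gene, stood at 8.69, 12.6 and 12.9 CPM in the controls and 27.1, 31.5 and 27.5 CPM in the knockouts, which in log2 terms was 1.33 ± 0.23 (SE) at an edgeR adjusted p of 0.0204, or 0.125 with knockout 1 and 2 as 1 library, where DESeq2 gave 0.0147 and limma-voom 0.0248. Without control 2 it was 0.0505, and without each knockout in turn both genes lost their call. Over all these lists together, 4 of 117 tested genes were called, 3.42%, against 4.83% of all genes.

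**Figure D5:**
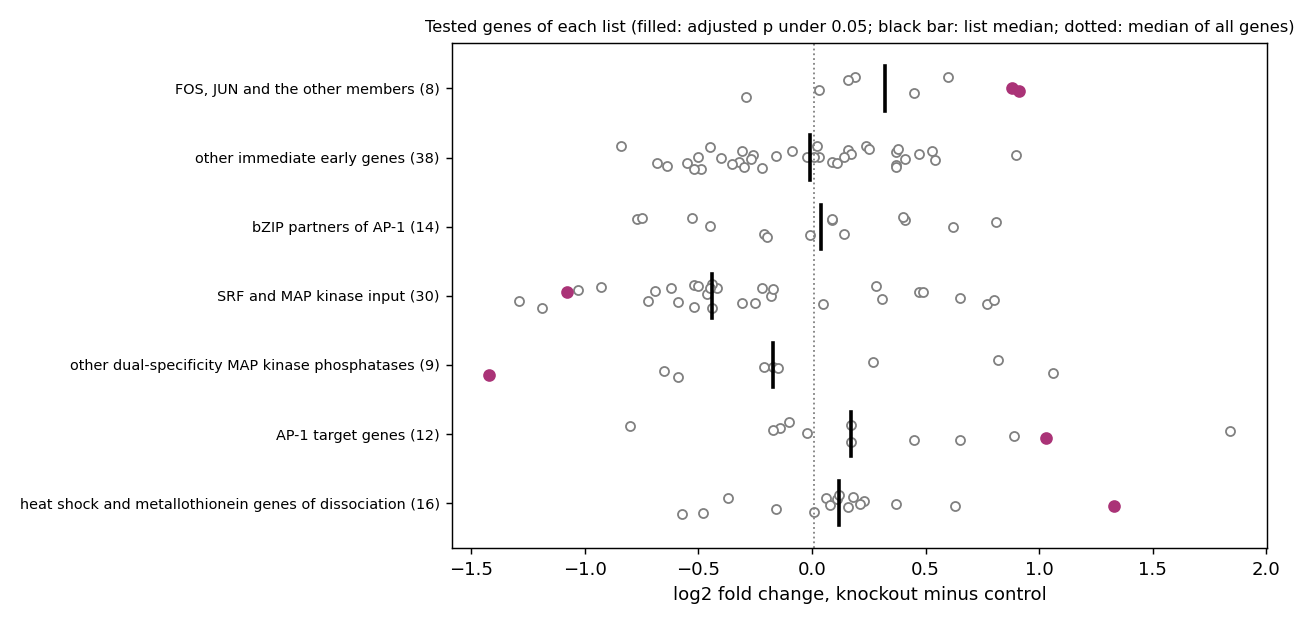
Log2 fold change of knockout against control (horizontal axis) for each tested gene of 7 lists, with the number tested in brackets, filled points for calls, black bars for the list medians and a dotted line for the median of all genes. The 8 members have a median of 0.32, the 38 other immediate early genes one of -0.01 and the 30 SRF and MAP kinase genes one of -0.44.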

How the data were processed

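RNA of about 1000 THY1-positive cells per library was amplified with SMART-seq2, per the labels' protocols, and no molecular identifiers were described. The authors deposited whole read counts per Ensembl gene; a deposited column of mean counts (a signal averaged over the libraries) and one of sums were not used. The submitters' processing notes name mm10, and as tools without roles STAR 2.7.5c, Trimmomatic 0.39 and StringTie 2.1.7. Which counter, strand setting and filter were used is not given in the sources here. Symbols, exon lengths and GC content came from GENCODE M21 (22562 of 22579 identifiers matched).

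All 6 libraries were fitted with edgeR 4.0.16 (quasi-likelihood, robust, TMM, filterByExpr, genotype alone, two-sided; R 4.3.3), and a gene was called at an adjusted p (Benjamini-Hochberg) under 0.05. The fit was tested on simulated data. CPM is relative to TMM-adjusted library size. SEs are the log2 fold change over the root of F. Alternatives used DESeq2 1.42.0, limma 3.58.1, other scalings and filters, a replicate block, left-out libraries, knockout 1 and 2 as their rounded mean, and a lowess correction (span 0.3). Every limma-voom fit used sample quality weights, also where the text names limma-voom alone.

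Members and lists were chosen with earlier results of these data known. From each list, called genes or, with none called, the 2 with the smallest p were named, and the 3 genes nearest in pattern to each called member. Any other listed gene that is named is marked as such, and was picked once its values were known. DESeq2 and limma-voom with the pair as 1 library, and the overlap counts under other settings, were added after seeing the data.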

Additional observations from a re-analysis of the deposited data

How the results depend on the processing

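The count of called genes, 713 over all genes, was 1378 with library size alone, 1641 with DESeq2 and 2765 with limma-voom with sample quality weights. Counting knockout 1 and 2 as 1 library gave 1 by edgeR, 465 by DESeq2 and 408 by limma-voom, and with 1 library left out it ran from 3 to 839. The count of called members, 2, was 0 with library size alone, 0 by edgeR with the pair as 1 library and 1 after removal of the length and GC trend, and ran from 0 to 3 with 1 library left out. The 4 calls in the other lists became 17 with library size alone, 7 with no filter on low counts, 14 with DESeq2, 35 with limma-voom with sample quality weights and 0 by edgeR with the pair as 1 library, and ran from 0 to 10 with 1 library left out. DESeq2 and limma-voom with the pair as 1 library each called the same 4 genes. The 3 members whose groups did not overlap became 1 with library size alone and ran from 3 to 6 with 1 library left out. The 6 came without control 1, where the share of all genes higher with no overlap also went from 16.8% to 22.3%. That share was not computed for library size alone or for the other left-out libraries.

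Signs turned for members that were not called: Fosl2 was 0.25 without control 1 and 0.14 by limma-voom with sample quality weights, Jun was -0.11 with library size alone and -0.06 without control 3, Egr1 was -0.28 with library size alone, -0.11 without control 2, -0.09 without control 3 and -0.03 without knockout 2, and Ier2 was -0.13 with library size alone and -0.16 after removal of the length and GC trend. With 1 library left out Fosl2 ran from -0.56 to 0.25, Jun from -0.06 to 0.61, Egr1 from -0.11 to 0.33 and Ier2 from 0.02 (without control 2) to 0.31 (without control 1). Fos and Dusp1 stayed above 0 in all 18 alternatives and kept their call in 10 and 12 of them. Library size alone moved the median of all genes to -0.26. Other causes were not tested. Leaving out a library leaves 2 in its group.

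With the replicate block the calls were 683 over all genes and 2 of the members, Fos and Dusp1. Deviations of same-numbered libraries had correlations over genes of -0.009, 0.007 and -0.001, and those of differently numbered libraries lay from -0.009 to 0.011. No pairing by number was seen in these values, which cannot show that none existed, and the labels do not give one. PCR copies cannot be told from molecules here. The filter on low counts kept Fosl1 (36 reads) and Jund (15 reads) out of the main test. With no such filter all 10 members were tested, and edgeR called only Fos and Dusp1.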

Other observations

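Il6, a cytokine gene on the list of AP-1 targets that was kept out of the test by its low counts, had 0, 1 and 0 reads in controls 1 to 3 and 20, 26 and 0 reads in knockouts 1 to 3. Its reads thus lay in knockout 1 and knockout 2, the libraries that differed least, at a mean chi-square of 1.78 per gene, and it was chosen after its values were seen. Plau, the urokinase gene of the same list, had a log2 fold change of 1.84 that did not pass (1.09 ± 0.56 CPM in controls and 3.91 ± 2.51 CPM in knockouts, SD, n = 3 per group), and was also chosen after its value was seen.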
